A study of Mus musculus with 4 samples.

Results

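The enzymes that supply deoxynucleotides were followed in mouse embryonic stem cells (ESCs) in late G1-phase. They are Rrm1, Rrm2 and Rrm2b, the subunits of ribonucleotide reductase, and Tyms, Dut and Dtymk, which serve the making and phosphorylation of thymidylate. The others are the salvage kinases Tk1 and Dck, and Samhd1, which breaks deoxynucleotides down. These 9 genes were chosen by name, by a rule that uses no measured value but with earlier results of these data known, and each matched 1 Ensembl identifier among the 14533 genes of the deposited table. RNA was sequenced from ESCs adapted for over 20 days to fetal calf serum with LIF (serum ESCs), or to LIF with the MEK inhibitor PD0325901 and the GSK3 inhibitor CHIR99021 in a medium free of serum (2i ESCs). Each condition had 2 libraries, which the series describes as biological replicates, and values are given for replicate 1 and then replicate 2. The sample labels say late G1-phase while the series description says early G1-phase. The labels name no cell line or genotype. The study sorted G1-phase cells with a fluorescent cell cycle reporter, so the sort gates set which cells the RNA came from.

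Deoxynucleotides are the building blocks of DNA, and cells keep their pools small outside S-phase. Ribonucleotide reductase makes them from ribonucleotides and pairs a large catalytic subunit, Rrm1, with a small subunit, either Rrm2, which dividing cells use in S-phase, or Rrm2b, which is induced by p53 and also serves cells that do not divide. Thymidylate needs its own steps, because no reductase makes it directly, and salvage kinases recover nucleosides from outside the cell. Several of these genes are textbook targets of E2F transcription factors, which act at the G1/S transition. The comparison of serum with 2i ESCs asks whether transcripts that serve S-phase entry differ between culture conditions in which G1-phase differs in length.

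The libraries held 18939401 to 26570098 whole reads over genes. The single member values rested on 371 to 9174 reads, so that counting error was at most 5.19% of a value, not counting other sources of error. The share of reads on protein-coding genes ran from 46.9% in serum replicate 1 to 76.3% in serum replicate 2, with 57.8% and 66.3% in the 2i libraries. All 8 ESC markers listed were in the table, including Pou5f1 and Nanog, and their summed level was 52047 and 68239 normalized counts (serum) against 53446 and 66564 (2i). Of 8 fibroblast markers 3 were in the table, with a summed level of 239 to 304 in serum and 136 to 427 in 2i, while Col1a2, Col3a1, Lum, Dcn and Postn were not listed. Of 8 primitive endoderm markers 5 were listed. Gata4 stood at 13.0 and 42.8 normalized counts (serum) against 152 and 169 (2i), and the summed level at 1456 and 2328 against 1850 and 1689, most of it Lama1. The part of these cells in the results was not tested.

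The promoter windows of the 3 members with the largest difference between conditions are given here, since they are the members that the results turn on. Each window holds 250 bases before and 50 bases after the RefSeq gene start, on the strand of the gene, in build GRCm38.p6 (Rrm2 at chr12:24708004-24708303, Dck at chr5:88764763-88765062 and Rrm1 at chr7:102441445-102441744, all on the plus strand). Capitals mark exact matches on either strand to a CCAAT box (CCAAT), a GC box (GGGCGG) and a CHR-like element (TTTGAA or TTTAAA), and no marked matches overlapped.
Rrm2: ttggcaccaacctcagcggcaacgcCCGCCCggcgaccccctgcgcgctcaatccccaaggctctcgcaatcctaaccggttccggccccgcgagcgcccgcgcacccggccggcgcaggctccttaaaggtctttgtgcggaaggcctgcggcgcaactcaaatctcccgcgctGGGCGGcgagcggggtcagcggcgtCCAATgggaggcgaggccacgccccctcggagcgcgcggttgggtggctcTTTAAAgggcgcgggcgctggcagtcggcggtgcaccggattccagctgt
Dck: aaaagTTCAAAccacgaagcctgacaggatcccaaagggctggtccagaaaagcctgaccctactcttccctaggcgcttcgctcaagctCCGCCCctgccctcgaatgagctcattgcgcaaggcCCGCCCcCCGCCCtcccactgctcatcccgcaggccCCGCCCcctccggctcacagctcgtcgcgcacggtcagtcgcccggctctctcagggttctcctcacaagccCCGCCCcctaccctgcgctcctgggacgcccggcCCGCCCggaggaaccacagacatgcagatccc
Rrm1: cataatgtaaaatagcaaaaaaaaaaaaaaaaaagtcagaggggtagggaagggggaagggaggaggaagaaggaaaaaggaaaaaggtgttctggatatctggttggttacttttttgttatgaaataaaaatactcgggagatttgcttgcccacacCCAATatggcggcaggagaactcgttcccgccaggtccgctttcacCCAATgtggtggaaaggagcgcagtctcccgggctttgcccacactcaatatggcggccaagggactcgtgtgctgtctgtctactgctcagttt

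Rrm2 had a CCAAT box whose first base lay at position -50 from the start, a GC box at -75 and another, on the opposite strand, at -225, and TTTAAA at the start itself. Rrm1 had 2 CCAAT boxes, at positions -91 and -45 from the start, and no GC box. Dck had 6 GC boxes and no CCAAT box. RefSeq held a window for 8 of the 9 members, all but Rrm2b. A CCAAT box was found in 3 of these 8 and in 37.4% of all 32851 windows of this length, a GC box in 6 of 8 and in 35.7% of all, and a CHR-like element in 3 of 8 and in 27.6% of all. An E2F motif spelled as TTTCCCGC, TTTCGCGC, TTTGCCGC or TTTGGCGC was found on either strand in 0 of 8 and in 2.26% of all windows. Other spellings were not sought, and at so low a share 8 windows are too few, so this does not show that E2F sites are absent. These letters describe the windows and no binding was measured here.

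Rrm2, the small subunit used in S-phase, differed most between conditions among the members. The serum libraries held 5959 and 8917 normalized counts of it, the 2i libraries 2691 and 1567. Both serum libraries lay above both 2i libraries. The fold change was 3.55 (log2 fold change 1.83, SE 0.52, 95% interval 0.58 to 3.07 on the log2 scale, unadjusted p = 0.0110). Over all 13005 genes tested it did not pass (limma, adjusted p-value 0.753), and it was past the threshold with DESeq2 on whole reads (adjusted p-value 0.0362). With each library left out in turn, its log2 fold change lay between 1.44 and 2.22. In these bulk samples fewer cells that express a gene and less RNA of it per cell cannot be told apart.

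Rrm1, the catalytic subunit, stood at 3261 and 4545 normalized counts (serum) against 1550 and 2704 (2i). The groups did not overlap, but the lower serum library was close to the higher 2i library. The log2 fold change was 0.91 (SE 0.50, limma, adjusted p-value 0.753). Rrm2b, the small subunit under p53 control, stood at 704 and 389 normalized counts (serum) against 597 and 422 (2i). Its groups overlapped, replicate 1 was the higher library in both conditions, and the log2 fold change was 0.06 with an interval of -1.16 to 1.28 (SE 0.51, limma, adjusted p-value 0.983). That interval holds a doubling in either direction. A list of 15 p53 target genes that does not hold Rrm2b had a median log2 fold change of -0.21, with 6 higher in serum, against a median of 0.0047 over all genes. At its ends were Perp (1.46), which acts in cell death and adhesion, and the polo-like kinase gene Plk2 (-1.07). Perp stood at 438 and 490 normalized counts (serum) against 546 and 51.4 (2i), so its direction rests on 2i replicate 2. Plk2 stood at 832 and 645 (serum) against 1087 and 2191 (2i).

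**Figure D1:**
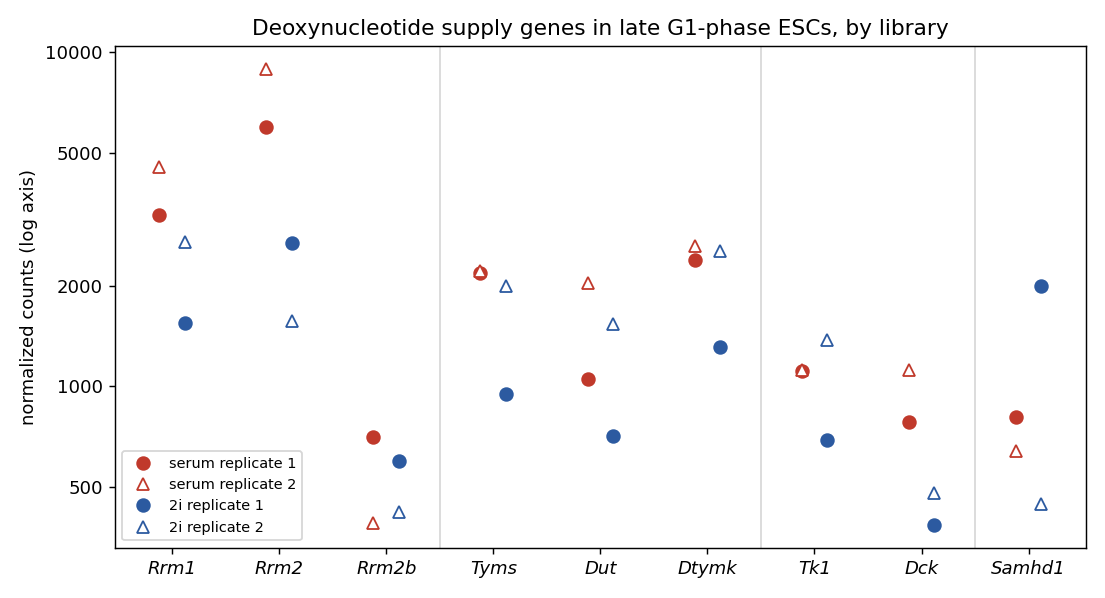
Normalized counts (log axis) of the 9 deoxynucleotide supply genes, with 1 point per library, serum in red and 2i in blue, circles for replicate 1 and open triangles for replicate 2. Serum and 2i libraries do not overlap for Rrm1, Rrm2, Tyms and Dck, and overlap for the other 5 genes.

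The thymidylate genes showed smaller differences and a wide gap between the 2i libraries. Tyms, thymidylate synthase, stood at 2190 and 2218 normalized counts (serum) against 951 and 1999 (2i). The serum libraries were nearly equal and lay above both 2i libraries, of which the higher was close to serum. The log2 fold change was 0.68 (SE 0.51, limma, adjusted p-value 0.766). Dut, the dUTPase that keeps uracil out of DNA and yields the substrate of Tyms, stood at 1053 and 2036 normalized counts (serum) against 711 and 1533 (2i). Replicate 2 was about equally far above replicate 1 in both conditions, and the groups overlapped. The log2 fold change was 0.49 (SE 0.58, limma, adjusted p-value 0.849). Dtymk, which phosphorylates thymidylate made by either route, stood at 2387 and 2624 normalized counts (serum) against 1314 and 2540 (2i). In this gene 2i replicate 2 lay between the serum libraries, and only 2i replicate 1 stood lower. The log2 fold change was 0.45 (SE 0.50, limma, adjusted p-value 0.836).

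Of the salvage kinases, Dck, which phosphorylates deoxycytidine and purine deoxynucleosides, stood at 784 and 1117 normalized counts (serum) against 385 and 481 (2i). All serum values lay above all 2i values, and Dck had the smallest standard error of the members. The fold change was 2.17 with an interval of 1.02 to 4.61 (log2 fold change 1.12, SE 0.45, unadjusted p = 0.0452), and it did not pass over all genes (limma, adjusted p-value 0.753). Tk1, the cytosolic thymidine kinase, stood at 1109 and 1122 normalized counts (serum) against 690 and 1380 (2i). The serum libraries lay between the 2i libraries, and the log2 fold change was 0.19 with an interval of -1.01 to 1.39 (SE 0.50, limma, adjusted p-value 0.935). Tk1 shares 5.72% of its 43-base words, the read length, with the pseudogene Gm6091, which was not listed, and a smaller share with its neighbour Afmid, which stood at 13.0 and 13.6 normalized counts (serum) against 114 and 145 (2i). The part of these reads in the Tk1 values was not tested.

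Samhd1, which hydrolyses deoxynucleoside triphosphates and so opposes the other members, was the only member with a mean log2 value lower in serum. It stood at 810 and 641 normalized counts (serum) against 2002 and 443 (2i). Both serum libraries lay between the 2i libraries, and 2i replicate 1 was 2.17 above 2i replicate 2 on the log2 scale. The log2 fold change was -0.39 (SE 0.74, limma, adjusted p-value 0.915). With 2i replicate 1 left out it was 0.70, so that its direction rests on that library, and with 2i replicate 2 left out it was -1.47.

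Of the 9 members, 8 had a log2 fold change above 0, as did 50.3% of all genes tested, and the median over the members was 0.49. With limma 0 members passed an adjusted p-value under 0.05 with a 2-fold change, against 0.0154% of all genes tested in either direction. DESeq2 on whole reads called 1 member, Rrm2, against 0.561% of all genes called higher in serum, and edgeR called 0, against 0.0%. At an unadjusted p-value under 0.05, 2 members were higher in serum (Rrm2 and Dck), against 2.97% of all genes in that direction, and 0 were higher in 2i, against 3.0%. A fold change over 2 toward serum was seen for 2 members, against 9.89% of all genes, and toward 2i for 0, against 15.9%. For 4 members both serum libraries lay above both 2i libraries, against 20.5% of all genes, and for 0 members both lay below, against 19.4%. The difference between conditions exceeded both replicate differences for 3 members, Rrm1, Rrm2 and Dck (33.3%), against 26.3% of all genes. The members thus ranged widely, from percentile 97.8 of the fold changes of all genes for Rrm2 and percentile 92.2 for Dck to percentile 52.7 for Rrm2b and percentile 32.3 for Samhd1.

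**Figure D2:**
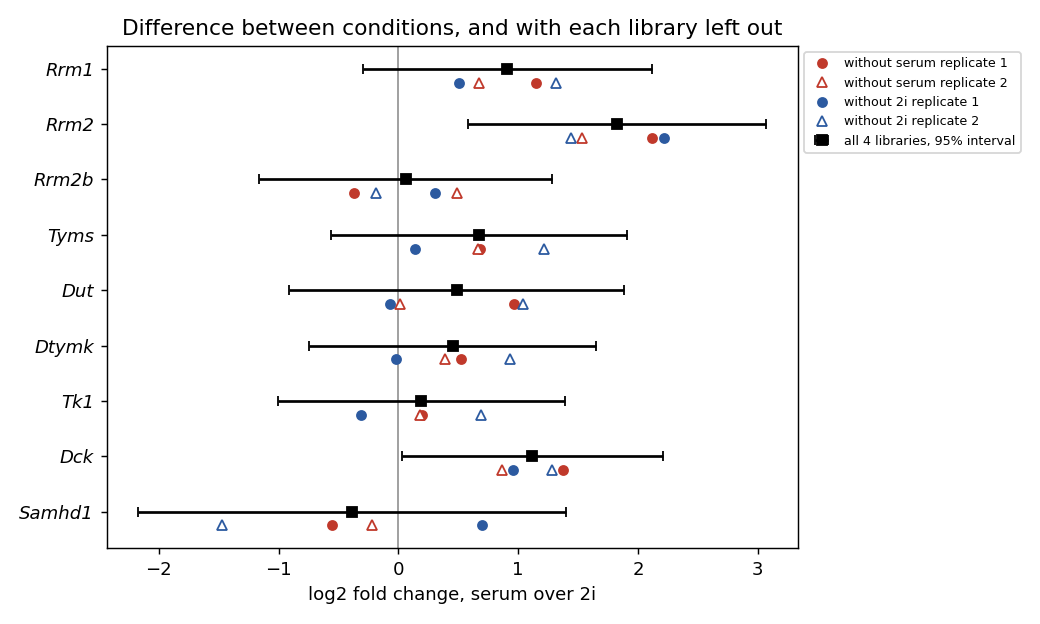
Log2 fold change of serum over 2i for each member, with black squares and 95% intervals from all 4 libraries, and below them the value with each library left out. Rrm2 and Dck have intervals above 0, and Rrm1, Rrm2, Tyms and Dck stay above 0 without any single library.

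On the log2 scale, 2i replicate 1 minus 2i replicate 2 was -1.11 for Dut, -1.07 for Tyms, -0.999 for Tk1, -0.95 for Dtymk, -0.80 for Rrm1 and -0.32 for Dck. It was 0.78 for Rrm2, 0.50 for Rrm2b and 2.17 for Samhd1. For 6 of the 9 members the 2i replicate difference was larger than that between conditions, as it was for 60.9% of all genes. Of 20 replication genes 16 were lower in 2i replicate 1 (median difference -0.83), while 4 of 15 G2/M genes were lower there (median difference 0.29) and 51.2% of all genes were. By sign, Rrm2, Rrm2b and Samhd1 stood on the side of the median G2/M gene and of the median ESC marker (0.34). The other members stood on that of the median replication gene. A shared sign says little here, since all genes split almost evenly between the signs. In serum, replicate 1 was below replicate 2 for 7 of the 9 members, and for 52.4% of all genes, from -0.017 for Tk1 and -0.018 for Tyms to -0.95 for Dut, with Rrm2b (0.86) and Samhd1 (0.34) the other way.

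**Figure D3:**
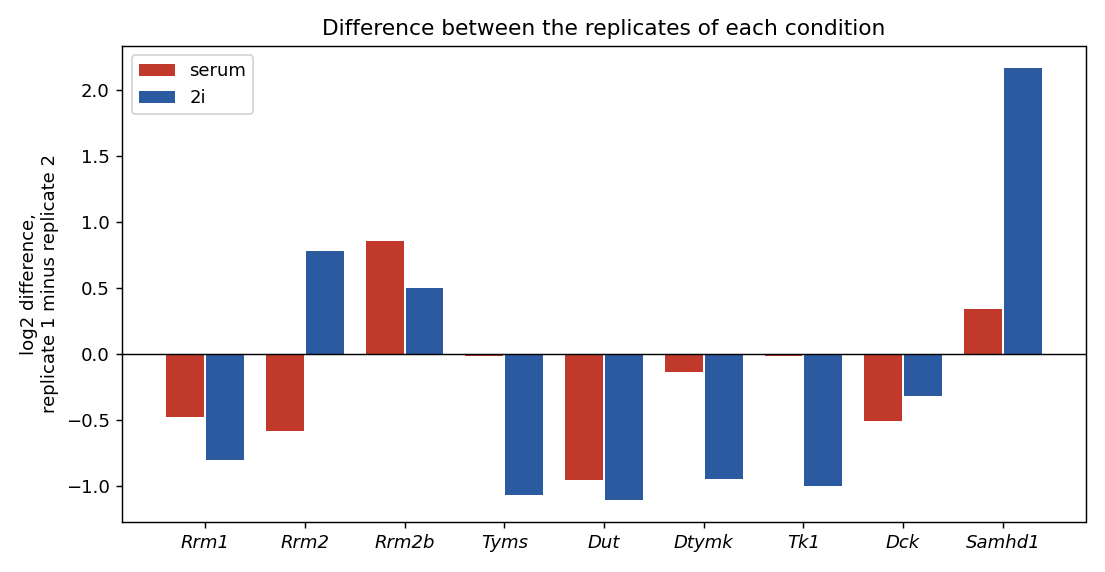
Log2 difference of replicate 1 minus replicate 2 within serum (red bars) and within 2i (blue bars) for each member. Tyms, Dut, Dtymk, Tk1 and Rrm1 have differences of -1.11 to -0.80 within 2i, while Rrm2, Rrm2b and Samhd1 were higher there.

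Without 2i replicate 1 the log2 fold changes of Dut, Dtymk and Tk1 were -0.066, -0.021 and -0.31, and those of Tyms and Rrm1 were 0.14 and 0.51. With 2i replicate 2 left out, Dut, Dtymk, Tk1, Tyms and Rrm1 had values of 1.04, 0.93, 0.69, 1.21 and 1.31. Over the members the median was 0.31 in the first case and 1.04 in the second. Dck (0.96 and 1.28) and Rrm2 (2.22 and 1.44) kept a positive value in both cases.

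Ratios of members within a library do not depend on the scaling between libraries, and they were taken on normalized counts per kilobase of the longest coding transcript. The Rrm2 to Rrm1 ratio was 3.33 and 3.58 in serum, 3.16 in 2i replicate 1 and 1.06 in 2i replicate 2. The value of 2i replicate 1 was thus close to those of serum, and 2i replicate 2 stood lower. The Rrm2 to Rrm2b ratio was 17.6 and 47.7 (serum) against 9.38 and 7.72 (2i), and the groups did not overlap. The Rrm2 to Samhd1 ratio was 13.2 and 24.9 (serum) against 2.41 and 6.33 (2i), again without overlap. The Tk1 to Dck ratio went the other way, at 3.02 and 2.15 (serum) against 3.83 and 6.13 (2i). The Tyms to Tk1 ratio was close between replicates, at 0.732 and 0.733 (serum) against 0.511 and 0.537 (2i). These ratios were taken without the GC content and length correction used as an alternative. With it the log2 fold change of Tyms (0.48) lay below that of Tk1 (0.57), against 0.68 and 0.19 without it. The Tyms to Tk1 difference thus depended on this choice. Dck (0.93, from 1.12) stayed above Tk1, and Rrm2 (1.82) above Rrm2b (-0.41) and Samhd1 (-0.44). Corrected ratios in each library were not computed. Groups overlapped for Rrm1 to Rrm2b, at 5.28 and 13.3 (serum) against 2.96 and 7.31 (2i). They also overlapped for Dut to Tyms, at 0.957 and 1.83 (serum) against 1.49 and 1.53 (2i). The share of all gene pairs without overlap was not computed. With 2 libraries against 2 an exact two-sided permutation test cannot give a p-value below 0.333, so these ratios are given as values with no test.

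**Figure D4:**
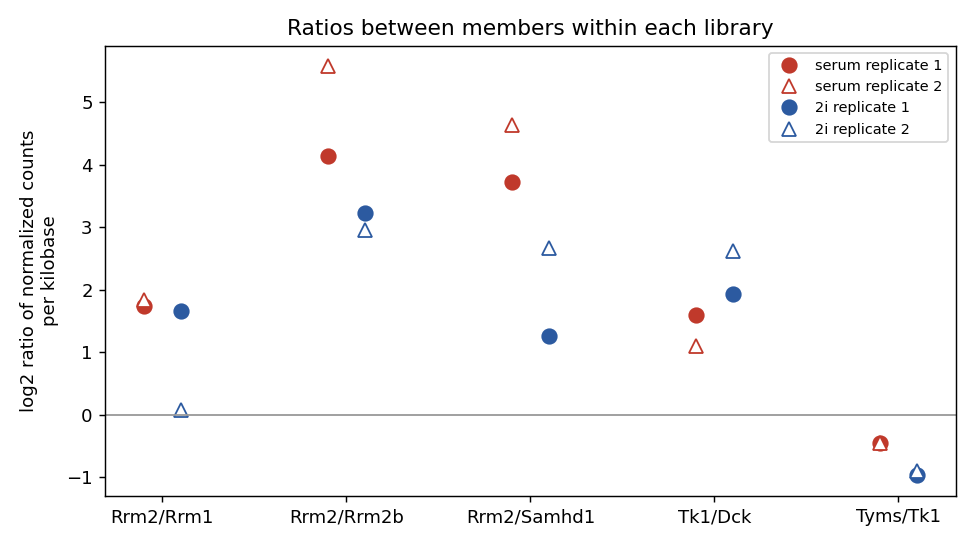
Log2 ratio of normalized counts per kilobase between pairs of members in each library, with serum in red, 2i in blue, circles for replicate 1 and open triangles for replicate 2. The Rrm2 ratios to Rrm2b and Samhd1 are higher in both serum libraries than in both 2i libraries, and Rrm2 to Rrm1 is low in 2i replicate 2 alone.

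Per kilobase, the mean level in serum ESCs was highest for Rrm2 (3392 normalized counts per kilobase) and Dtymk (2375), followed by Rrm1 (976), Dut (792), Tk1 (774), Tyms (567), Dck (309), Samhd1 (185) and Rrm2b (120). In 2i ESCs the order began with Dtymk (1827), Rrm2 (971), Tk1 (719), Dut (575) and Rrm1 (532), and went on with Tyms (380), Samhd1 (311), Dck (141) and Rrm2b (112). Several neighbours in these orders did not differ beyond the spread of their libraries. In serum Dut (540 and 1044 per kilobase) spanned Rrm1 in serum replicate 1 (816), Tk1 (770 and 779) and Tyms (564 and 571), and in 2i Rrm2 (1227 and 714) spanned Tk1 in 2i replicate 2 (959). Dck and Rrm2b remained apart in serum, with 255 and 363 against 154 and 85.2. These levels rest on the longest annotated transcript. Rrm2b has 7 coding transcripts, and with their median length its serum level would be 831 instead of 120 per kilobase. With median lengths Rrm2 would be at 8844 in serum and 2531 in 2i, above Dtymk in both (2409 and 1853). The ratios given above would also shift, by the same factor in every library.

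Positions of the members are given in build mm9. Rrm1 (ENSMUSG00000030978, chromosome 7, 109590209 to 109618285), Rrm2 (ENSMUSG00000020649, chromosome 12, 25393106 to 25399011) and Rrm2b (ENSMUSG00000022292, chromosome 15, 37853707 to 37891073) are each alone on theirs. So are Dtymk (ENSMUSG00000026281, chromosome 1, 95689153 to 95698511) and Tk1 (ENSMUSG00000025574, chromosome 11, 117676840 to 117687406). Tyms (ENSMUSG00000025747, 30384742 to 30400157) and Dck (ENSMUSG00000029366, 89194021 to 89212306) share chromosome 5, and Dut (ENSMUSG00000027203, 125072926 to 125084344) and Samhd1 (ENSMUSG00000027639, 156923265 to 156961001) share chromosome 2. At least 91.2% of the 43-base words of each member's longest transcript occurred in no other annotated gene, and 100% for Rrm1, Rrm2b, Dut and Dck. Over all annotated exons, however, Rrm2b held 1.38% of the words of Nanog, which stood at 9449 and 10040 normalized counts (serum) against 13612 and 11892 (2i), and the part of these reads in the Rrm2b values was not tested. Reads of Rrm2 could be shared with the pseudogene Gm11485 over 0.837% of its words.

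Other genes of nucleotide metabolism were compared as a list of 61 genes, of which 57 were tested. Their median log2 fold change was 0.07, with 36 higher and 21 lower in serum. With limma 0 passed the adjusted threshold. An unadjusted p-value under 0.05 was reached by 0, against 2.97% of all genes toward serum and 3.0% toward 2i. The gap between the 2i libraries was seen here too, since 49 of the 57 genes were lower in 2i replicate 1 (median difference -0.74). Against 2i replicate 2 alone the list median was -0.25 for serum replicate 1 and -0.17 for serum replicate 2, so that its positive value rests on 2i replicate 1. For 10 of the 57 genes both serum libraries lay above both 2i libraries, against 20.5% of all genes. For 6 both lay below, against 19.4%.

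By step of the pathway, 10 of 12 purine synthesis genes were higher in serum (median 0.36), with Prps2, which makes the ribose donor, at the top (serum 1480 and 1480, 2i 918 and 498 normalized counts, log2 fold change 1.13) and its paralog Prps1 at the bottom (-0.10). All 6 genes of the folate cycle for thymidylate were higher (median 0.24), with Mthfd2 the lowest (0.07). Of 5 pyrimidine synthesis genes 3 were higher (median 0.27), from Cad (-0.24) to Ctps (0.53). The nucleotide kinases had a median of 0.05 over 7 genes, from Ak1 (-0.50) to Nme1 (0.42). Against 2i replicate 2 alone, the medians for the serum replicates in turn were -0.19 and 0.44 for purine synthesis, -0.057 and 0.23 for the folate cycle, -0.064 and -0.23 for pyrimidine synthesis, and -0.27 and -0.46 for the kinases.

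Of 15 salvage and transport genes 5 were higher in serum (median -0.11). At the ends stood Pnp, purine nucleoside phosphorylase (serum 1375 and 4066, 2i 609 and 1356 normalized counts, log2 fold change 1.38), and the uridine kinase-like gene Uckl1 (serum 133 and 72.9, 2i 187 and 402 normalized counts, log2 fold change -1.47). Of 8 nucleotidases and pool-cleaning genes 6 were higher (median 0.12), from Nt5m (-0.76) to Nt5e (1.03). Against 2i replicate 2 alone, however, the list medians were -0.33 and -0.52. Nt5e stood at 177 and 269 normalized counts (serum) against 38.4 and 291 (2i), so its direction rests on 2i replicate 1. Among 4 genes for reductants that recharge ribonucleotide reductase, 1 was higher (median -0.24), namely Txnrd1 (0.35), and the lowest was Glrx (-0.88). None of the genes named in these lists passed over all genes (limma, adjusted p-values of 0.753 or more). The conditions overlapped for Cad, Ctps, Ak1, Nme1, Mthfd2, Prps1 and Nt5e.

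Cell cycle lists give the setting for the members. The 20 replication genes had a median log2 fold change of 0.45, with 18 higher in serum, 2 at an unadjusted p-value under 0.05 and 8 without overlap in that direction. Against 2i replicate 1 alone their medians were 0.79 and 0.96, and against 2i replicate 2 alone -0.063 and 0.16, where the members had 0.27 and 0.41. At the ends were Ccne2 (1.73), the cyclin E2 gene, and Pola1 (-0.63), the catalytic subunit of DNA polymerase alpha. Ccne2 shares 17.8% of its words with Ints8, and its groups overlapped. Fen1 and Gins2 of this list had 18.4% and 29.6% of words found in no other annotated gene. Pola1 stood at 3309 and 5145 normalized counts (serum) against 14732 and 2757 (2i), so its direction rests on 2i replicate 1. The 15 G2/M genes had a median of 1.26, with 14 higher, 9 at an unadjusted p-value under 0.05 and 12 without overlap. The shares over all genes, for both lists, were 50.3% higher in serum, 2.97% at that unadjusted p-value (limma) and 20.5% without overlap. At the ends of the G2/M list were Cenpe (2.19), a kinetochore motor, and Cdk1 (-0.01). Rrm2 (1.83) lay above the median of both lists, and Dck (1.12) and Rrm1 (0.91) lay between the medians. In these sorted cells the summed level of the G2/M genes was 29083 and 42363 normalized counts (serum) against 18463 and 15370 (2i). Its part in the difference of Rrm2 was not tested.

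**Figure D5:**
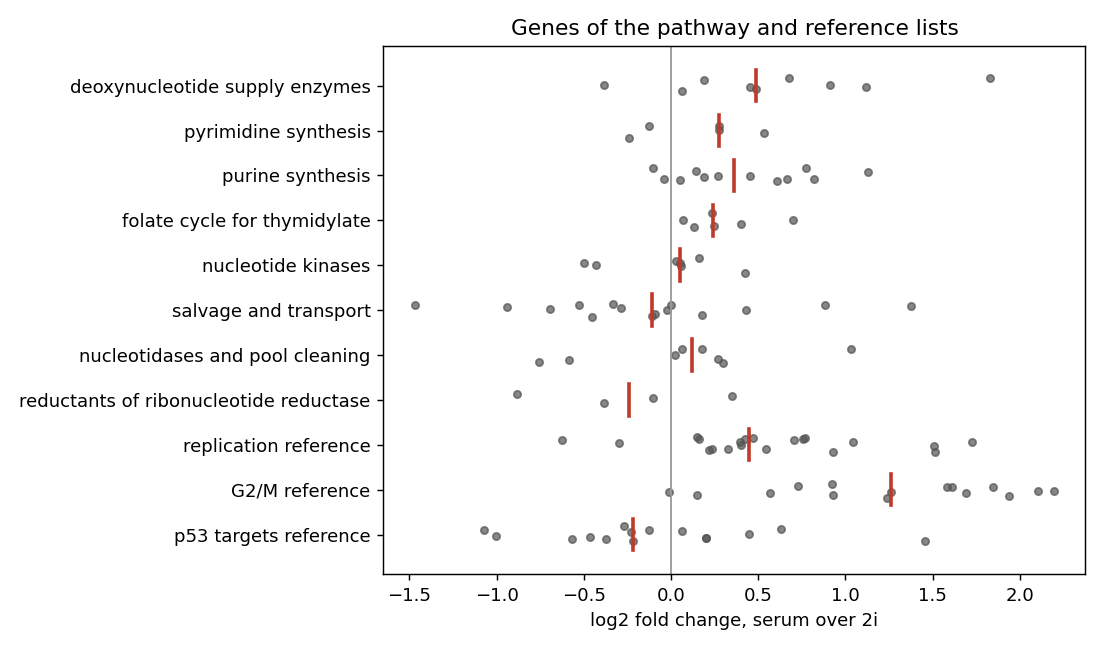
Log2 fold change of serum over 2i for each tested gene (grey points) of the deoxynucleotide supply enzymes, the steps of nucleotide metabolism and the reference lists, with the list median as a red line. The medians were 0.49 for the supply enzymes, 0.36 for purine synthesis, -0.11 for salvage and transport, 0.45 for replication and 1.26 for G2/M genes.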

How the data were processed

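RNA was extracted from sorted ESCs, depleted of ribosomal RNA and sequenced from random primers as single 43-base reads. The authors aligned reads to mm9 with Bowtie, quantified transcripts with MMSeq, and deposited normalized counts, a signal obtained from gene counts by scaling each library with its size factor. Versions are not given in the sources used here. Relative to a tolerance of 0.0001, 100% of the values were whole multiples of 1 step per library, and these whole reads served the count tests. Genes were named from GENCODE vM1 (mm9), and promoter windows came from RefSeq (GRCm38.p6).

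Genes with a mean of at least 50 in either group were tested with limma 3.58.1 (R 4.3.3, variance trend) on log2(normalized count + 1), and fold changes are on this scale. A call needed a Benjamini-Hochberg adjusted p-value under 0.05 over all 13005 genes and a 2-fold change. Alternatives were edgeR 4.0.16, DESeq2 1.42.0, other scalings, pseudocounts and filters, a replicate block, GC content and length correction (mgcv 1.9.3), and leaving out libraries. All 9 members are named, as is the gene at each end of each list, except an item that is not reported here. The lists, like the members, were chosen with earlier results of these data known.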

Additional observations from a re-analysis of the deposited data

How the results depend on the processing

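Rrm1, Rrm2, Tyms and Dck kept a positive log2 fold change under all 17 alternatives, with ranges of 0.51 to 1.31, 1.44 to 2.22, 0.14 to 1.21 and 0.86 to 1.37. Rrm2 passed the threshold with DESeq2 alone (1.77), which made 1 member called. Rrm2b turned to -0.060 under upper quartile scaling, where the median of all genes was -0.12, to -0.41 after GC content and length correction, where that median was 0.10, to -0.37 without serum replicate 1 and to -0.19 without 2i replicate 2. Without 2i replicate 1, Dut, Dtymk, Tk1 and Samhd1 turned direction. With 1 library left out the ranges were -0.37 to 0.49 for Rrm2b, -0.066 to 1.04 for Dut, -0.021 to 0.93 for Dtymk, -0.31 to 0.69 for Tk1, -1.47 to 0.70 for Samhd1 and 0.31 to 1.04 for the member median. The causes were not tested. After the GC content and length correction the median over the members was 0.67. With it Dut, Dtymk and Tk1 rose to 0.69, 0.67 and 0.57, from 0.49, 0.45 and 0.19. Tyms, Rrm1 and Dck fell to 0.48, 0.67 and 0.93, from 0.68, 0.91 and 1.12. The order of the thymidylate genes and the low value of Tk1 thus depended on this choice. A lone library left in a group was assumed to vary like the others.

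The counts over all genes depended on the test. Higher in serum and in 2i, they were 0 and 2 as reported, 73 and 178 with DESeq2, 0 and 0 with edgeR and after GC content and length correction, 0 and 1 with limma without trend, and 0 and 4 at a mean of at least 200. Leaving out each library gave 0 to 0 in 2i.

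Both conditions carry replicate numbers 1 and 2, and their replicate differences correlated across genes (r = 0.480). Since there are 2 pairs, nothing shows that these numbers pair libraries. The replicate block gave 44 and 159 calls, toward serum and 2i, and with the replicate block and the GC content and length correction 1 and 3, and no member was called in either.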
